A study of Arabidopsis thaliana with 18 samples.

Results

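HIS1-3, LEA4-5 and COR47 are Arabidopsis genes known for their response to drying, and their transcripts were followed in roots of 2 ecotypes grown on plates held at 3 angles. Each gene was found by its locus (AT2G18050, AT5G06760 and AT1G20440) in the annotation of the Affymetrix ATH1 array and had 1 probe set there, namely 265817_at for HIS1-3, 250648_at for LEA4-5 and 259570_at for COR47. They are 3 of 22746 probe sets tested, of which 13513 carried exactly 1 gene name.

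A plant cell that loses water, through drought, salt or freezing, accumulates abscisic acid (ABA), and this hormone and parallel routes switch on a set of protective genes. HIS1-3 encodes a short variant of linker histone H1, the protein that binds DNA where it enters and leaves the nucleosome, and is the H1 gene known to be inducible by drought and ABA. LEA4-5 encodes a late embryogenesis abundant (LEA) protein of group 4, a small hydrophilic protein of seeds and water-stressed tissue. COR47 encodes an acidic dehydrin, a LEA protein with lysine-rich segments that is induced by cold, drought and ABA and binds water and membranes.

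The groups were wild-type Col-0 and wild-type WS, each at an angle of the growth plate (Agp) of 45° (tilted backward), 90° (vertical) or 135° (tilted forward), with 3 arrays per group and 18 in all. All seedlings grew upright on Phytagel medium in continuous light for 3 days and then for 5 days at their angle, and roots were cut from the shoots at 8 days. Each array carried RNA pooled from 5 roots. The angles were used because WS roots skew with waving at Agp 45° and skew without waving at Agp 135°, whereas Col-0 roots wave at Agp 45° and do not skew. No group was deprived of water by design. Whether the 3 pools of a group came from separate plates is not given in the sources used here, so the p-values measure the spread between these arrays. A pool of whole roots cannot tell fewer cells of a type from less RNA per cell.

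The deposited values were MAS5 signals on a linear scale with a trimmed mean of 500 on every array, and the median signal per array ran from 194 to 208. Fold changes here are differences of log2(signal + 32) after quantile normalization, with limma's two-sided p-values adjusted by the Benjamini-Hochberg method over all 22746 probe sets (adjusted p). As a measure of RNA integrity, actin signal at the 3′ end was divided by that at the 5′ end, and this actin ratio was 6.06 on Col-0 Agp 90° replicate 2 and 6.05 on WS Agp 90° replicate 3, and from 3.85 to 4.76 on the other 16 arrays. As checks of tissue, 2 of 14 root marker genes (the root-hair expansins EXPA7 and EXPA18) and 2 of 13 shoot photosynthesis markers (LHCB4.1 and RCA) had a probe set of their own, and 0 of 9 seed markers did. Both shoot markers were measurable in the dissected roots, with lowest signals of 646 (LHCB4.1) and 649 (RCA) and summed signals from 1298 to 2576.

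HIS1-3 signals differed widely between arrays of the same group. In Col-0 at Agp 90° its signals were 288, 769.7 and 101 on replicates 1 to 3, a 7.66-fold range within 1 group. In Col-0 at Agp 45° they were 634, 702 and 526, and at Agp 135° they were 263, 286 and 637. The 3 vertical Col-0 arrays thus enclosed all other Col-0 arrays. In WS the signals were 276, 206 and 123 at Agp 90°, 285, 213 and 292 at Agp 45°, and 530.0, 384 and 364 at Agp 135°. All 3 WS arrays of Agp 135° lay above all 6 WS arrays of the other angles. By mean log2 value the groups rose in the order WS Agp 90°, WS Agp 45°, Col-0 Agp 90°, Col-0 Agp 135°, WS Agp 135° and Col-0 Agp 45°, and each group overlapped the next.

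**Figure D1:**
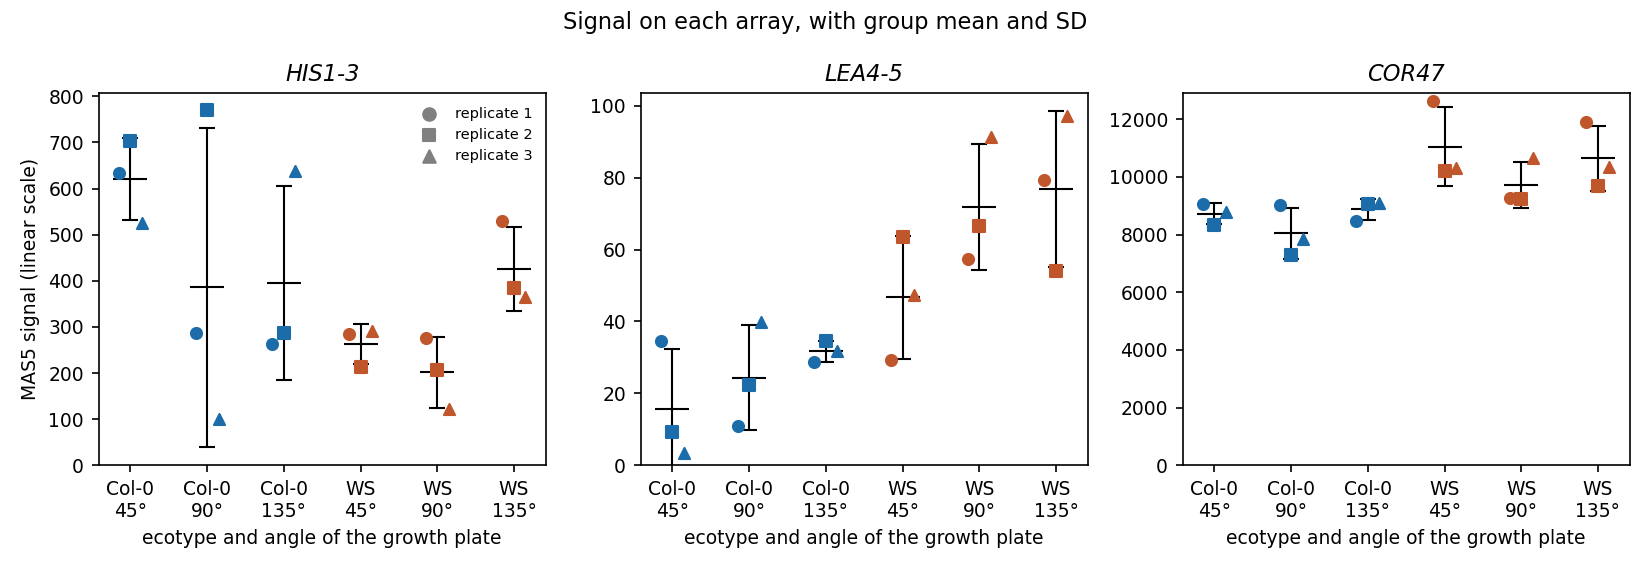
MAS5 signal (linear scale from 0) of HIS1-3, LEA4-5 and COR47 on each of the 18 arrays, by ecotype and angle (Col-0 blue, WS orange; symbols give the replicate; horizontal bars and whiskers give the mean and SD of 3 arrays, cut at 0). The 3 HIS1-3 values of Col-0 at 90° run from 101 to 769.7, most LEA4-5 values of Col-0 lie under those of WS, and the 9 COR47 values of Col-0 lie under the 9 of WS.

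HIS1-3 passed the adjusted p threshold in 0 of the 6 comparisons between angles, where 0.022% (Col-0 Agp 45° against 90°), 0% (Col-0 135° against 90°), 0% (Col-0 135° against 45°), 0.985% (WS 45° against 90°), 0.0528% (WS 135° against 90°) and 0.356% (WS 135° against 45°) of all probe sets did. LEA4-5 and COR47 did not pass in these comparisons either. By an unadjusted p under 0.05 HIS1-3 passed in 2 of 6 (Col-0 45° against 90° and WS 135° against 90°), LEA4-5 in 0 and COR47 in 0. By that measure 7.35%, 6.73% and 4.1% of all probe sets passed in the Col-0 comparisons, in the order above, and 12.5%, 10.6% and 9.86% in those of WS. The log2 fold change of HIS1-3 from Agp 90° to Agp 45° in Col-0 was 1.0 (SE 0.465, 95% interval 0.01 to 1.99, unadjusted p = 0.0471, adjusted p = 0.679, limma), with means of 621 ± 89.0 against 386 ± 345 (SD, n = 3). In WS the change from Agp 90° to Agp 135° was 1.01 (SE 0.465, 95% interval 0.02 to 2.00, unadjusted p = 0.0457, adjusted p = 0.46), with means of 426 ± 90.6 against 201 ± 76.8. These are 2.00-fold and 2.01-fold differences on that scale, and neither passed once p was adjusted over all probe sets. The WS groups did not overlap, as was the case for 15.9% of all probe sets in that comparison, and the Col-0 groups did.

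The other angle contrasts of HIS1-3 were smaller. WS at Agp 45° differed from Agp 90° by 0.41 (95% interval -0.57 to 1.40, adjusted p = 0.779), and Col-0 at Agp 135° from Agp 90° by 0.30 (-0.69 to 1.29, adjusted p = 0.941). Between the tilted plates, HIS1-3 was 0.70 lower at Agp 135° than at Agp 45° in Col-0 (log2 difference -0.70, 95% interval -1.69 to 0.28, adjusted p = 1) and 0.60 higher in WS (-0.39 to 1.58, adjusted p = 0.747). The 3 WS arrays at Agp 135° lay above the 3 at Agp 45°, a separation shared by 15.4% of all probe sets. The difference between the ecotypes in this contrast, WS minus Col-0, was 1.30 (SE 0.657, 95% interval -0.10 to 2.70, unadjusted p = 0.0661, adjusted p = 0.913), and 0% of probe sets passed in any of the 3 interactions. The intervals of the other interactions of HIS1-3 ran from -1.99 to 0.81 (Agp 45° against 90°) and from -0.69 to 2.11 (135° against 90°).

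Between ecotypes, HIS1-3 was higher in Col-0 than in WS at Agp 45°, by 1.09 on the log2 scale (2.13-fold, SE 0.465, 95% interval 0.11 to 2.08), but this did not pass after adjustment (unadjusted p = 0.0322, adjusted p = 0.147, against 13% of probe sets that passed). The SE came from the spread of all 6 groups. The log2 SD was 0.195 in Col-0 and 0.21 in WS at Agp 45°, and 1.278 in Col-0 at Agp 90°. With the compared groups alone the difference passed (adjusted p = 0.00514, limma), and it also passed without both arrays of high actin ratio. Those 2 arrays were at Agp 90°, so the arrays compared at Agp 45° stayed the same. The shares of all probe sets that passed in these 2 settings are not given here. With single arrays of the compared groups left out the difference did not pass (adjusted p from 0.188 to 0.304). All 3 Col-0 arrays lay above the 3 WS arrays at Agp 45°, which 32% of probe sets did in one direction or the other. At Agp 90° the difference was 0.51 (adjusted p = 0.57, against 13.1% that passed), and at Agp 135° it was -0.21 (adjusted p = 0.845, against 13.5%). Averaged over the 3 angles it was 0.46 (SE 0.268, 95% interval -0.11 to 1.03, adjusted p = 0.223), in a comparison where 29% of probe sets passed.

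By the study's own criterion, a log2 fold change over 1 with an unadjusted p under 0.05, HIS1-3 met both conditions in 3 of 13 comparisons: Col-0 at Agp 45° against 90°, WS at Agp 135° against 90°, and Col-0 against WS at Agp 45°. The criterion was met by 0.0879%, 0.171% and 2.69% of all probe sets there. LEA4-5 and COR47 met it in 0 of 13 with 32 added to the signal, whereas the study applied it to RMA values. For the dim LEA4-5 this depended on the setting. Between ecotypes LEA4-5 met the criterion in at least 1 alternative setting at Agp 90° (values down to -1.60), at Agp 45° (-1.75) and averaged (-1.47). In Col-0 LEA4-5 also met the criterion in at least 1 alternative setting for 135° against 45° (values up to 1.40). In the other comparisons that HIS1-3 did not meet, it was met by 0.00879% (Col-0 135° against 90°), 0.0484% (Col-0 135° against 45°), 0.224% (WS 45° against 90°) and 0.277% (WS 135° against 45°) of probe sets, by 2.71% (Agp 90°), 2.75% (Agp 135°) and 2.41% (averaged) between ecotypes, and by 0.207% (45° against 90°), 0.202% (135° against 90°) and 0.237% (135° against 45°) in the interactions. In these 3 comparisons HIS1-3 lay just past the fold limit (1.0, 1.01 and 1.09), and it met the criterion with 1, 1 and 3 of the 6 arrays of each comparison left out in turn. Leaving out Col-0 Agp 90° replicate 2, the array with the highest actin ratio, raised the Col-0 change at Agp 45° to 1.64 (unadjusted p = 0.000741, adjusted p = 0.2), and leaving out replicate 3 of that group lowered it to 0.36 (adjusted p = 0.965). Without WS Agp 90° replicate 3, the other array with a high actin ratio, the WS change at Agp 135° was 0.75 (unadjusted p = 0.166, adjusted p = 0.727). With Col-0 Agp 90° replicate 3 left out, the Col-0 excess averaged over angles was 0.68 and passed (adjusted p = 0.0227), and without both arrays of high actin ratio it was 0.17 (adjusted p = 0.615).

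**Figure D2:**
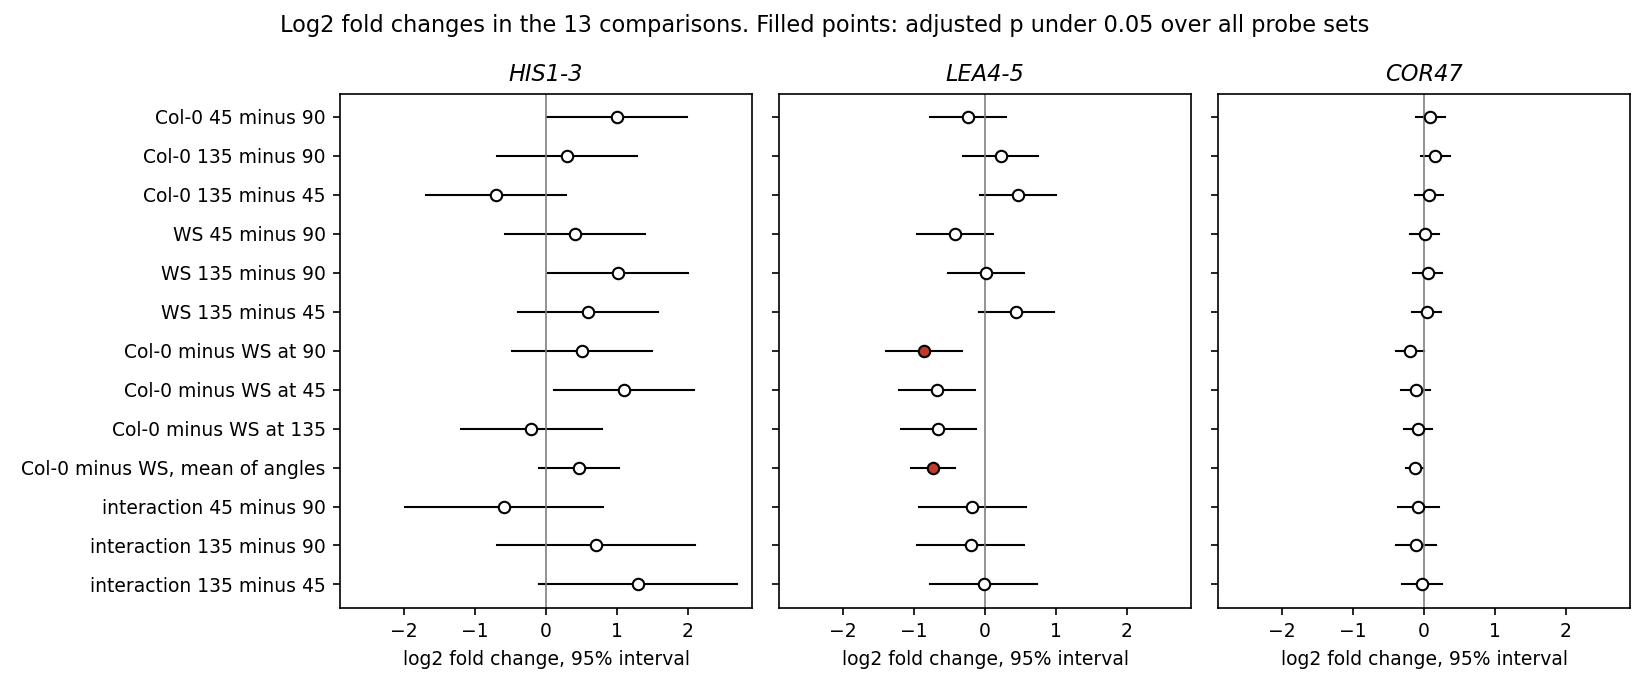
Log2 fold change (points) with 95% interval (lines) of HIS1-3, LEA4-5 and COR47 in the 13 comparisons between angles, between ecotypes and of their interaction (WS minus Col-0); filled points passed an adjusted p of 0.05. The filled points are LEA4-5 for Col-0 minus WS at 90° (-0.86) and averaged over the angles (-0.73).

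The SD of HIS1-3 within groups was 0.641 on the log2(signal + 32) scale, against 0.339 for LEA4-5 and 0.105 for COR47, and 13 of 22746 probe sets had a larger one. Among the 1000 probe sets nearest to it in level the median SD was 0.146, and 99.9% of them varied less than HIS1-3. The vertical Col-0 group contributed most (SD 1.28 on the log2 scale). Without that group, a setting chosen after its spread was seen, the SD was 0.407 and 98.2% of probe sets still varied less, and over the 9 WS arrays alone it was 0.343 with 91.4% varying less. With a pseudocount of 1, which raises the spread of dim probe sets, 77.8% varied less.

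**Figure D3:**
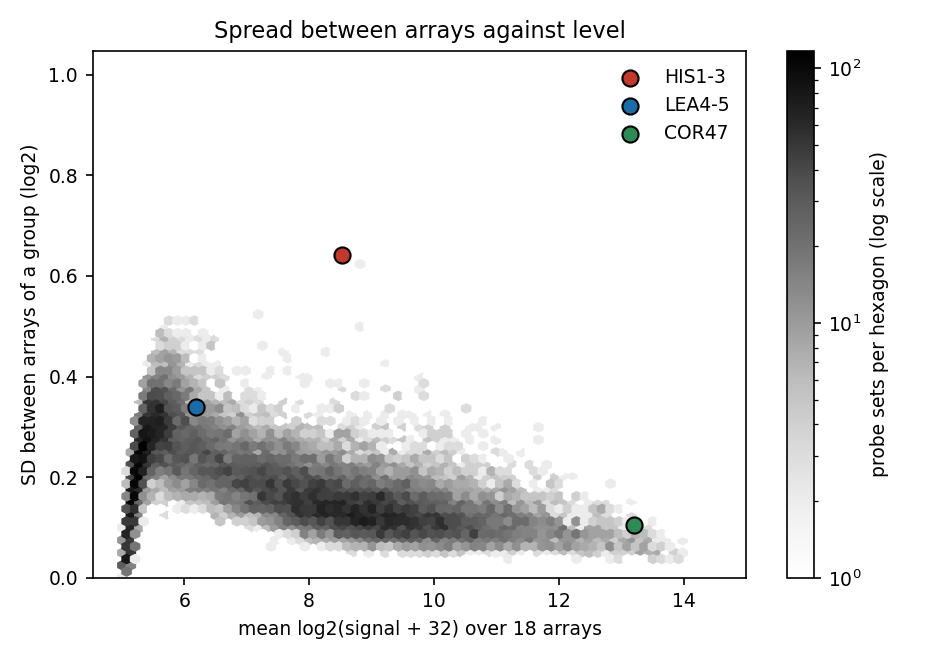
SD between arrays of a group (log2) against the mean log2(signal + 32) over 18 arrays for all 22746 probe sets (grey, shade on a log scale) and the 3 genes. HIS1-3 (mean 8.53, SD 0.641) lies far above probe sets of its level, whereas LEA4-5 (6.18, 0.339) and COR47 (13.20, 0.105) lie within the cloud.

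Shoot markers and actin ratio had the order of HIS1-3 over the 3 vertical Col-0 arrays, but not in every group. In Col-0 at Agp 90° the summed signal of LHCB4.1 (a light-harvesting protein) and RCA (Rubisco activase) was 1946, 2576 and 1487 on replicates 1 to 3, the same order as HIS1-3, and the actin ratio was 4.28, 6.06 and 3.85. The sum also had the order of HIS1-3 in Col-0 at Agp 45° (2370, 2401 and 1628), but not at Agp 135° (1298, 2199 and 2106). The actin ratio had it in neither of these tilted Col-0 groups. In the tilted WS groups neither measure had the order of HIS1-3. In WS at Agp 90° the sum was 1915, 2334 and 1569, and the highest HIS1-3 signal (276) was not on the array with the highest sum. The actin ratio there was 4.26, 4.53 and 6.05, the reverse of the order of HIS1-3. At Agp 45°, where HIS1-3 was higher in Col-0, the sum was 1628 to 2401 in Col-0 and 1501 to 1554 in WS. At Agp 135° in WS it was 1561 to 1953, against 1569 to 2334 in WS at Agp 90°. The part of these in the HIS1-3 values was not tested.

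The main linker histones, H1.1 and H1.2, which are present in chromatin of most cells, were steady across these arrays. H1.1 signals ran from 2456 to 3082 over the 18 arrays and H1.2 signals from 2985 to 4060. Neither gene passed in any comparison between angles. H1.2 was 0.13 lower in Col-0 than in WS on the log2 scale averaged over angles (SE 0.0416, adjusted p = 0.0266), in the direction opposite to HIS1-3, but the call was lost without both arrays of high actin ratio and on leaving out any of 3 single arrays (adjusted p up to 0.0643). These were WS Agp 90° replicate 3, Col-0 Agp 45° replicate 2 and Col-0 Agp 135° replicate 1. H1.1 differed by -0.08 (adjusted p = 0.225).

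LEA4-5 was dim and was lower in Col-0 than in WS. In Col-0 its signals were 11, 22.4 and 39.8 at Agp 90°, 34.5, 9.43 and 3.36 at Agp 45°, and 28.6, 34.6 and 31.9 at Agp 135°. In WS they were 57.5, 66.6 and 91.3 at Agp 90°, 29.3, 63.5 and 47.3 at Agp 45°, and 79.2, 54.0 and 97.1 at Agp 135°. Of the 9 WS arrays, 8 lay above all 9 Col-0 arrays, and WS Agp 45° replicate 1 was the exception. The signal was at or below the pseudocount of 32 on 6 of 9 Col-0 arrays and 1 of 9 WS arrays, so fold changes on this scale understate the ratio of signals, and no detection calls were used here to say on which arrays the transcript was detected.

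Averaged over angles, LEA4-5 was 0.73 lower in Col-0 on the log2 scale (1.66-fold, SE 0.145, 95% interval -1.04 to -0.42, adjusted p = 0.00108, limma), in a comparison where 16% of all probe sets passed in that direction. This difference was larger than the spread between arrays, and it passed with each of the 18 arrays left out in turn (adjusted p from 0.000184 to 0.00303). Its size depended on the pseudocount, at -1.47 with a pseudocount of 1 (adjusted p = 0.00811) and -0.37 with one of 100 (adjusted p = 0.000722). At Agp 90° it was 0.86 lower (log2 difference -0.86, SE 0.251, adjusted p = 0.0323), as 6.36% of probe sets were by that test. The arrays did not overlap there, as for 26.5% of probe sets. At Agp 45° the difference was -0.68 (adjusted p = 0.094) and the arrays overlapped. At Agp 135° it was -0.66 (adjusted p = 0.104) without overlap, as for 32.1% of probe sets. The call at Agp 90° rested on few arrays. It was lost without WS replicate 2 (-0.91, adjusted p = 0.0586) or 3 (-0.72, adjusted p = 0.135), and without Col-0 replicate 1 (-0.65, adjusted p = 0.15) or 2 (-0.87, adjusted p = 0.0724). At Agp 45° a call was gained without Col-0 replicate 1 (-0.96, adjusted p = 0.0185).

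No LEA4-5 difference between angles passed the adjusted p threshold. In WS it was 0.43 lower at Agp 45° than at Agp 90° (log2 difference -0.43, 95% interval -0.96 to 0.11, adjusted p = 0.529) and 0.02 higher at Agp 135° (-0.52 to 0.55, adjusted p = 0.993). In Col-0 the changes were -0.24 at Agp 45° (-0.78 to 0.29, adjusted p = 0.9) and 0.22 at Agp 135° (-0.31 to 0.75, adjusted p = 0.914). In both ecotypes the mean was lowest at Agp 45° and highest at Agp 135°, with differences between these of 0.46 in Col-0 (adjusted p = 1) and 0.44 in WS (adjusted p = 0.62). The 3 interactions of LEA4-5 lay between -0.20 and -0.02 with adjusted p of 0.929 or higher, and their intervals reached from -0.96 to 0.73. By mean log2 value the 3 Col-0 groups (Agp 45°, 90°, 135°) came below the 3 WS groups (Agp 45°, 90°, 135°), and neighbours in this order overlapped.

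Of the tissue markers measured, the 2 root-hair genes also differed between ecotypes averaged over angles, and the 2 shoot markers did not pass. In that comparison 12.9% of all probe sets passed as higher in Col-0. The summed signal of EXPA7 and EXPA18 was 886 to 1662 in Col-0 and 711 to 1062 in WS, and both genes were higher in Col-0 averaged over angles (0.44, adjusted p = 0.0315, and 0.42, adjusted p = 0.0139), although EXPA7 did not pass with any of 7 single arrays left out (adjusted p up to 0.064). These were WS Agp 90° replicates 1 and 3, WS Agp 45° replicates 2 and 3, and replicate 1 of WS Agp 135°, Col-0 Agp 45° and Col-0 Agp 135°. The part of root-hair cells in the LEA4-5 difference was not tested. The ATH1 probes were designed from the Col-0 genome, and probe matches in WS were not tested for any of these genes. The other group 4 genes measured, LEA4-1 and LEA18, were dim, with median signals of 13.6 and 16, and differed between ecotypes by -0.02 (adjusted p = 0.957) and -0.39 (adjusted p = 0.179).

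The COR47 probe set gave a strong signal on every array, and its spread was small (SD within groups 0.105 on the log2 scale). In Col-0 its signals were 9029, 7300.0 and 7834 at Agp 90°, 9062, 8329 and 8795 at Agp 45°, and 8457, 9052 and 9111 at Agp 135°. In WS they were 9275, 9246 and 10654 at Agp 90°, 12619, 10195 and 10320.0 at Agp 45°, and 11894, 9694 and 10359 at Agp 135°. All 9 Col-0 arrays lay below all 9 WS arrays on this deposited scale, which was true of 7.75% of probe sets in one direction or the other. The gap was narrow, from 9111 to 9246, and within each ecotype the 3 angles overlapped.

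The size of the ecotype difference of COR47 depended on the scaling of the arrays. On the deposited scale COR47 was 0.29 lower in Col-0 averaged over angles (log2 difference -0.29, adjusted p = 0.00243, limma), where 29.9% of all probe sets passed. After quantile normalization COR47 was 0.13 lower (log2 difference -0.13, SE 0.0549, 95% interval -0.25 to -0.02, adjusted p = 0.084). This did not pass, where 29% of all probe sets did. The ecotypes overlapped, where 7.97% of probe sets did not (log2 values from 13.04 to 13.25 in Col-0 and from 13.10 to 13.46 in WS). The bright end of the signals was also higher on WS arrays: the 99th percentile was 6830 to 8163 in Col-0 and 7384 to 9048 in WS. Counted from the brightest probe set of its array, COR47 ranked 127 to 195 in Col-0 and 71 to 173 in WS. At each angle, the difference after quantile normalization was -0.20 (Agp 90°, adjusted p = 0.216), -0.12 (Agp 45°, adjusted p = 0.494) and -0.09 (Agp 135°, adjusted p = 0.642). Without WS Agp 45° replicate 2 the averaged difference was -0.16 and passed (adjusted p = 0.0366).

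**Figure D4:**
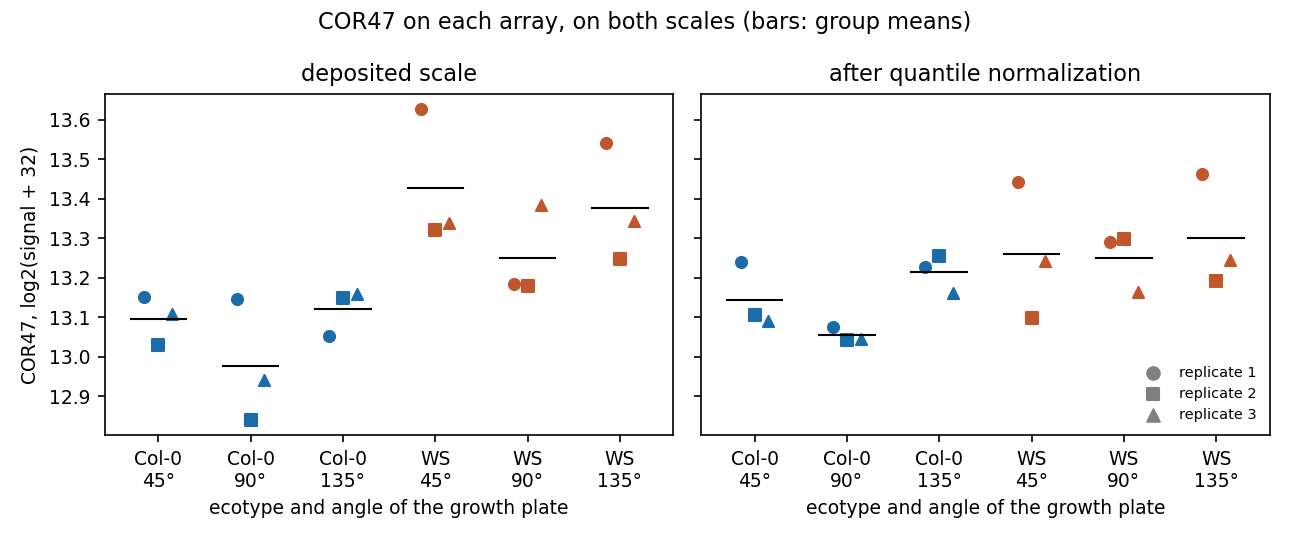
COR47 as log2(signal + 32) on each of the 18 arrays, on the deposited scale (left) and after quantile normalization (right), by ecotype and angle (symbols give the replicate, bars the group mean). The ecotypes are apart on the left and overlap on the right, where Col-0 runs from 13.04 to 13.25 and WS from 13.10 to 13.46.

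No comparison between angles passed for COR47, and on the quantile scale the intervals were narrow. In Col-0 the log2 changes from Agp 90° were 0.09 at Agp 45° (95% interval -0.11 to 0.29, adjusted p = 0.902) and 0.16 at Agp 135° (-0.04 to 0.36, adjusted p = 0.793). In WS they were 0.01 (-0.19 to 0.21, adjusted p = 0.985) and 0.05 (-0.15 to 0.25, adjusted p = 0.913). On the quantile scale these intervals allow a tilted angle between 0.875 and 1.29 times the level at Agp 90°. The bound depends on the scaling: over the alternative settings the WS change at Agp 45° ran from -0.03 to 0.18. From Agp 45° to Agp 135° the change was 0.07 in Col-0 (-0.13 to 0.27) and 0.04 in WS (-0.16 to 0.24). The interactions lay between -0.11 and -0.03 (adjusted p of 0.916 or higher). ERD10, the dehydrin gene next to COR47 on the chromosome and its close relative, had no probe set of 1 gene in the annotation used. Cross-hybridisation between COR47 and ERD10 was not tested.

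Of 37 genes listed for H1 histones, dehydrins and other LEA proteins, 22 had a probe set of 1 gene, including the 3 described above. In any comparison between angles or interaction 0 of 22 passed (limma). Of all probe sets 0% to 0.985% passed between angles and 0% in the interactions. Several of the 22 were dim, with median signals of 0.37 (M17), 2.43 (AT3G15670) and 5.42 (AT5G44310), so a change in them would be hard to see. By an unadjusted p under 0.05 between 0 and 4 of the 22 did, and the 4 were in WS at Agp 135° against 90°, where 10.6% of all probe sets passed by that measure. In the interactions 1 of 22 (45° against 90°), 2 (135° against 90°) and 0 (135° against 45°) did, against 7.35%, 6.87% and 5.56% of all probe sets. Averaged over angles, 2 of 22 were higher in Col-0 and 4 were lower, against 12.9% and 16% of all probe sets, and their median difference was -0.03, as was that of all probe sets (-0.03). By list, 0 of 3 H1 genes were higher and 1 lower, 1 of 6 dehydrins higher and 1 lower, and 1 of 13 other LEA genes higher and 2 lower.

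Of the genes that passed, the 2 higher in Col-0 were DI21 and LTI30. DI21 (AT4G15910), a drought-induced LEA gene, had signals of 2986, 3888 and 4601 (lowest, median and highest of 9) in Col-0 and of 899, 1218 and 1399 in WS. The ecotypes did not overlap, and the log2 difference was 1.69 (3.22-fold, SE 0.0792, adjusted p = 1.2e-10). LTI30 (AT3G50970), a dehydrin of the cold response like COR47, had signals of 6609, 7505 and 8514 in Col-0 and of 4196, 4796 and 6258 in WS. Again the ecotypes did not overlap, and the difference was 0.72 (SE 0.0665, adjusted p = 3.92e-07), opposite in sign to that of COR47. On the deposited scale COR47, DI21 and LTI30 were the 3 genes of the 22 whose 9 Col-0 arrays did not overlap the 9 WS arrays, as was the case for 7.75% of all probe sets.

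On the lower side in Col-0, AT2G46140, listed with the LEA proteins, differed by -0.47 (SE 0.0838, adjusted p = 0.000465), with median signals of 1311 in Col-0 and 1834 in WS. The dehydrin AT4G38410 differed by -0.39 (adjusted p = 0.0406), a call lost in 14 of 25 alternative settings (adjusted p up to 0.0847), among them the omission of any Col-0 Agp 135° array, of replicate 1 or 3 of WS Agp 90°, WS Agp 45° or Col-0 Agp 45°, and of replicate 1 or 2 of Col-0 Agp 90°. HIRD11, a small dehydrin, had median signals of 10854 in Col-0 and 12410 in WS. Like that of COR47, its difference depended on the scaling. It was -0.19 on the deposited scale (adjusted p = 0.0457), where 29.9% of all probe sets passed, and 0.01 after quantile normalization (95% interval -0.09 to 0.11, adjusted p = 0.915). The cold-induced COR15A and COR15B were dim, with median signals of 7.88 and 32, and differed by -0.04 (adjusted p = 0.878) and -0.24 (adjusted p = 0.145). Among 19 transcription factors of ABA and cold signalling only ZAT10 had a probe set of 1 gene in the annotation used. ZAT10 was lower in Col-0 averaged over angles (-0.30, adjusted p = 0.0253). This call was lost without WS Agp 135° replicate 1 or Col-0 Agp 135° replicate 1 (adjusted p up to 0.0536).

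**Figure D5:**
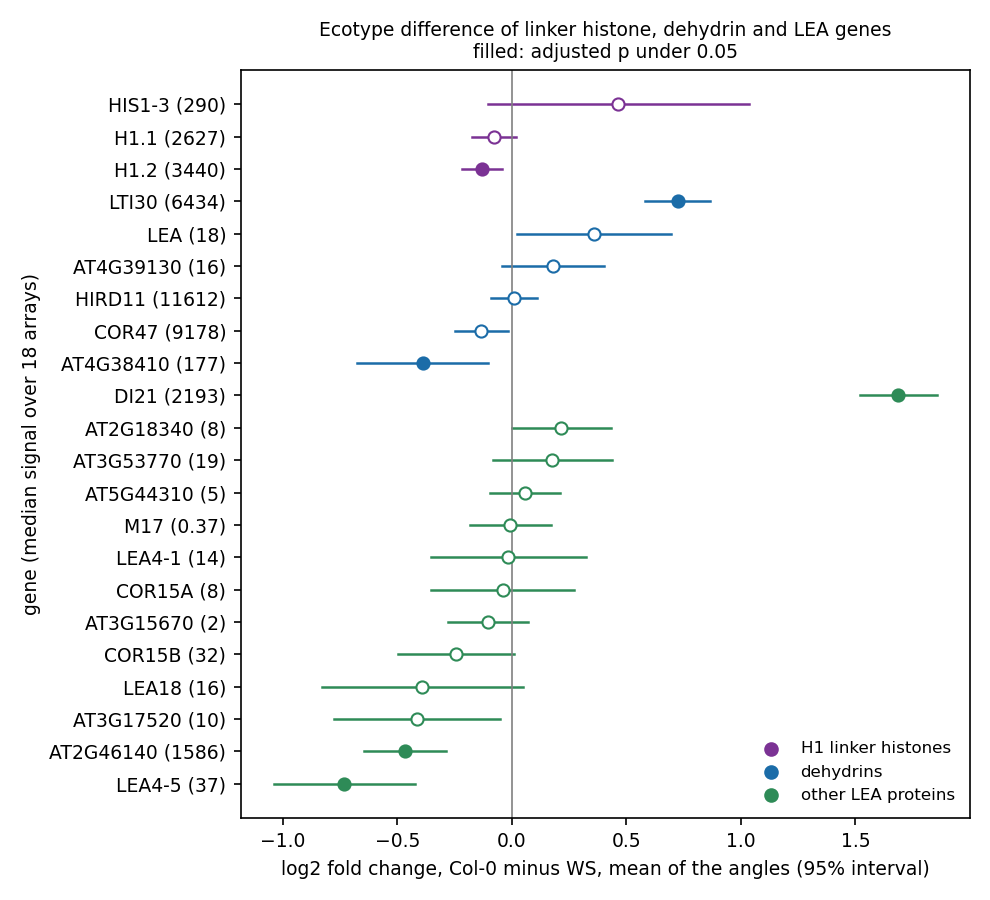
Log2 fold change of Col-0 minus WS averaged over the 3 angles, with 95% interval, for the 22 measured genes of the H1 (purple), dehydrin (blue) and other LEA (green) lists; filled points passed an adjusted p of 0.05 and the median signal over 18 arrays stands after each name. Differences run from -0.73 (LEA4-5) to 1.69 (DI21), with 2 filled points above 0 and 4 below.

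The genes whose pattern over the 18 arrays was most like each of the 3 differed between them. For HIS1-3 the closest of 5978 probe sets by Pearson correlation were AT4G27130 (r = 0.909), AT5G46780 (0.907), WLIM2b, a LIM-domain protein that binds actin filaments (0.901), AT4G09830 (0.899) and AT1G80180 (0.898). They followed its order of arrays with far smaller changes: the log2 change from Agp 90° to 45° in Col-0 was 0.15 for AT4G27130, 0.16 for WLIM2b and 0.36 for AT1G80180, against 1.0 for HIS1-3. For LEA4-5 they were AT5G38710 (r = 0.882), AT1G78060 (0.881), the defensin gene PDF2.1 (0.863), AT5G47550 (0.862) and AT1G22440 (0.86). All 5 were, like LEA4-5, lower in Col-0 averaged over angles, with log2 differences from -0.23 (AT1G78060) to -0.78 (AT5G38710), which are given with no test because these genes were picked by likeness on the same arrays.

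For COR47 the closest were AT3G17710 (r = 0.79), AT3G06760 (0.786), AT1G61370 (0.776), AT1G34630 (0.773) and AT1G70160 (0.768). These correlations describe 18 arrays that share ecotype, angle and scaling, and the closest probe sets were picked from all those compared. By rank correlation 3 of the 5 remained for each gene. By deviations from the group means, which leave out ecotype and angle, 1 of 5 remained among the closest for HIS1-3, 1 for LEA4-5 and 0 for COR47. On these deviations the r of the same 5 genes ran from 0.839 to 0.94 for HIS1-3. For LEA4-5 it ran from 0.499 to 0.799 and for COR47 from 0.591 to 0.748. The deviations are part of the values by which these genes were picked, so these r are not a separate check.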

How the data were processed

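Transcripts were measured in roots of Col-0 and WS seedlings at 3 angles of the growth plate on 18 ATH1 arrays, 3 per group, grouped by their labels. The authors deposited signal intensity values made with the MAS5 algorithm in Affymetrix Expression Console, on a linear scale that already includes scaling between arrays. The tests of the study used RMA values, which need raw array files and were not computed here.

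The intensities were converted to log2(signal + 32), quantile normalized between arrays and cleared of 64 control probe sets. For 22746 probe sets the 6 group means were estimated in limma 3.58.1 under R 4.3.3 (12 residual and 3.45 prior degrees of freedom) and compared in 13 contrasts. The script was tested on simulated data. p-values are two-sided and adjusted by Benjamini-Hochberg over all probe sets. The number of arrays limits the precision, and arrays give no counts or depth. No 2 arrays held identical values.

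Genes were named from probe sets with exactly 1 gene in the platform's annotation (13513). The 8730 probe sets without a gene and 503 with several were tested but not named. The 3 genes and the 12 gene lists (147 genes, 27 measured, 6 lists with none measured) were chosen with earlier results of these data known. The genes named are the 3, their relatives H1.1, H1.2, LEA4-1 and LEA18, the 5 with the highest Pearson r with each (among probe sets of 1 gene whose mean log2 value was at or above the median), and listed genes that passed. HIRD11, COR15A and COR15B were added after their values were seen. Relatives and ABA or stress genes without a probe set of 1 gene (ERD10, ERD14 and RAB18 among them) were not analysed here. Such genes may still be on the array, since many probe sets carried no gene in the annotation used. Alternatives were the deposited scale, pseudocounts of 1 and 100, omission of the 40% dimmest probe sets, an intensity trend, the compared groups alone, a replicate block, omission of single arrays, and omission of both arrays with a high actin ratio.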

Additional observations from a re-analysis of the deposited data

How the results depend on the processing

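Of 620 values of the 3 genes under alternative settings, 571 kept their direction and their side of the threshold, 32 changed sign (all with a main adjusted p of 0.57 or higher), 7 lost a call and 10 gained one. The lower LEA4-5 level in Col-0 averaged over angles passed in every setting run that kept the gene (adjusted p from 0.000184 to 0.00811). Leaving out the 40% dimmest probe sets removes LEA4-5, so it has no value there. The cause of each change below was not tested, unless the setting itself holds fewer arrays.

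On the deposited scale, LEA4-5 passed between ecotypes at Agp 45° (-0.75, adjusted p = 0.0464) and Agp 135° (-0.75, adjusted p = 0.0459), as 13.4% and 13.3% of all probe sets did. COR47 passed there averaged over angles (-0.29, adjusted p = 0.00243), as 29.9% did. On that scale the signs turned for the LEA4-5 interaction of 135° against 45° (0.0012) and for COR47 in WS at 135° against 45° (-0.0508) and in the interaction of 45° against 90° (0.0589). With a pseudocount of 1, LEA4-5 at Agp 90° lost its call between ecotypes (-1.60, adjusted p = 0.131) and its interaction of 45° against 90° was 0.15; with 100, its interaction of 135° against 45° was 0.0533. With an intensity trend COR47 passed averaged over angles (-0.13, adjusted p = 0.0434). With the compared groups alone, LEA4-5 lost the call at Agp 90° (-0.86, adjusted p = 0.064) and gained one at Agp 135° (-0.66, adjusted p = 0.0335), and HIS1-3 passed between ecotypes at Agp 45° (1.09, adjusted p = 0.00514; adjusted p from 0.00514 to 0.209 over 8 alternatives). Without both arrays of high actin ratio, HIS1-3 between ecotypes was 1.09 at Agp 45° and passed (adjusted p = 0.0422), was -0.39 at Agp 90°, and its interaction of 135° against 90° was -0.18; LEA4-5 at Agp 90° was -0.73 (adjusted p = 0.204), and COR47 in WS at 45° against 90° was -0.0334. HIRD11 averaged over angles (0.01 in the main setting) was -0.19 on the deposited scale (adjusted p = 0.0457), -0.0161 without both arrays of high actin ratio, and from -0.0101 to 0.0308 with single arrays left out.

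With the replicate number as a block, HIS1-3 between ecotypes at Agp 45° was 1.09 (adjusted p = 0.168), and the block changed 0 calls of the 3 genes. The numbers are not known to pair arrays: residuals of 45 same-numbered pairs correlated at a median of -0.00285 (-0.229 to 0.146), and 5 of 18 arrays were closest to their own number.

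With each array left out in turn, which leaves 1 group with 2 arrays, the sign or the call changed at least once in the following comparisons (angles in degrees). For HIS1-3 the values ran from -0.34 to 0.94 (Col-0 135 against 90), from -0.59 to 0.0177 (Col-0 against WS at 135), from -0.13 to 1.14 (Col-0 against WS at 90), from 0.25 to 0.68 (Col-0 against WS averaged over angles) and from -1.23 to 0.0501 (interaction of 45 against 90). For LEA4-5 the values ran from -0.96 to -0.47 (Col-0 against WS at 45), from -1.05 to -0.65 (Col-0 against WS at 90), from -0.11 to 0.17 (WS 135 against 90), from -0.31 to 0.19 (interaction of 135 against 45), from -0.40 to 0.0094 (interaction of 135 against 90) and from -0.39 to 0.10 (interaction of 45 against 90). For COR47 the values ran from -0.16 to -0.10 (Col-0 against WS averaged over angles), from -0.0420 to 0.13 (WS 135 against 45), from -0.0327 to 0.10 (WS 135 against 90), from -0.0792 to 0.0903 (WS 45 against 90), from -0.11 to 0.0604 (interaction of 135 against 45) and from -0.17 to 0.0001 (interaction of 45 against 90).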
